A study of Mus musculus with 19 samples.

Results

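The longest enriched intervals in a map of 5-hydroxymethylcytosine (5hmC) in mouse cells on their way to pluripotency are described here. A peak was taken as broad when the authors' peak caller had drawn it as a single interval of at least 2000 bp on chromosomes 1 to 19 in any of 15 deposited lists. The 1751 peaks that met this width were merged wherever they shared at least 1 bp, which gave 1024 regions, called members below. They span 2.57 Mb and are 1024 of the 342202 merged peak regions of the same lists and chromosomes. Members were selected on peak width, so that their width and coverage in those 15 lists are given as a description, without a test.

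The cells were pre-iPSCs derived from mouse embryonic fibroblasts, which are intermediates stalled on the way to induced pluripotent stem cells. The labels give every list the same treatment, ascorbic acid with the GSK3 inhibitor CHIR-99021 and the MEK inhibitor PD-0325901 (together 2i), and this includes the D0 libraries. Wild-type cells (WT) had 3 libraries, A, B and C, at each of days 0, 2 and 10 (D0, D2 and D10). Knockout cells (KO) had a library of KO1 and a library of KO2 on each day, and the labels name neither the gene that was knocked out nor how the lines were made. The V6.5 line of mouse embryonic stem cells, abbreviated mESC, was sampled once per time, at 0, 12 and 72 hours in the same treatment, and therefore without replicates. No label says that libraries of a group came from separate cultures, and a p-value here reflects nothing but the spread among these samples, possibly technical. The data are from genomic DNA alone, and no marker of cell identity was measured.

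5hmC is made when TET dioxygenases oxidise 5-methylcytosine, using iron and 2-oxoglutarate. It is both a step on the way to unmethylated cytosine and a mark that can persist in gene bodies and at enhancers. Ascorbic acid is known to raise TET activity in cultured cells, and 5hmC is known to be redistributed while somatic cells are reprogrammed. In the assay, a T4 glucosyltransferase attaches an azide-bearing glucose to 5hmC, biotin is coupled to it, and the labelled fragments are captured and sequenced. A peak is therefore a stretch where captured fragments pile up over background, and its width depends on how far that pile stays above the caller's threshold.

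Lists differed in length and in the width of their peaks. The 15 choosing lists held 54997 to 160426 peaks on chromosomes 1 to 19, with the fewest in WT D10 C and the most in WT D2 A. mESC lists were shorter, at 23876 to 33496 peaks. Absolute read depth is unknown, because the files hold peaks and no counts. KO1 and WT D0 B stood apart in width: the shortest peak was 240 to 276 bp in the KO1 lists and 261 bp in WT D0 B, against 212 to 237 bp in the other 11. Across the 15 lists the number of broad peaks had a rank correlation of 0.458 with the shortest peak and of 0.764 with the length of the list, and lists share the same caller. Run names inside the files place KO1 with WT B and KO2 with WT C in naming style, and WT D0 C alone lacks the word for an input control. How far depth, caller settings or naming batch set the widths was not tested. Coverage by day and the tests on windows are given below with and without KO1 among the choosing lists, and coverage also without WT B; counts of patterns and mESC shares are given for the full set only.

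Broad peaks were unevenly spread over the libraries. At D0 the WT lists held 20 (A), 270 (B) and 1 (C). At D2 they held 180, 188 and 89, and at D10 they held 23, 36 and 10. KO1 held 124, 409 and 264 at D0, D2 and D10, while KO2 held 37, 53 and 47. The mESC lists held 0, 1 and 2 at 0, 12 and 72 hours. All 3 WT D2 lists thus held more broad peaks than any WT D10 list, but the D0 lists ranged from fewest to most of all WT lists.

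**Figure D1:**
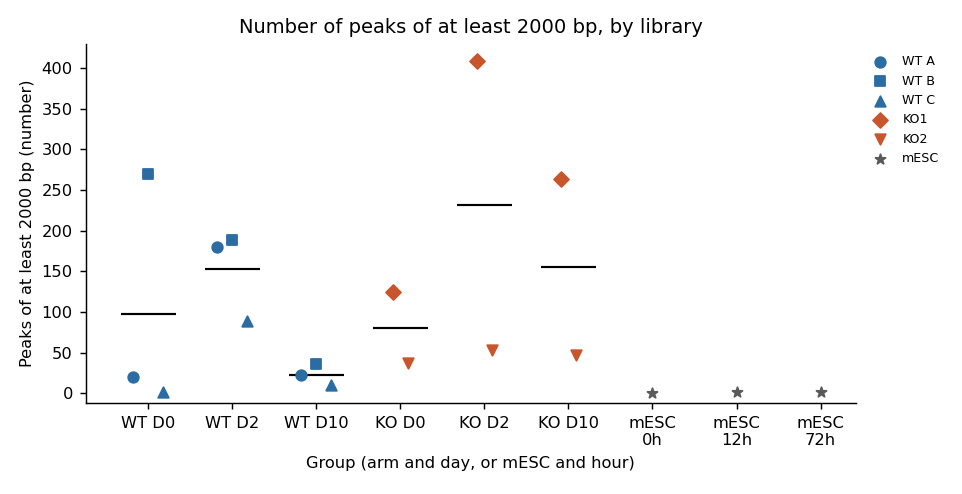
Number of peaks of at least 2000 bp on chromosomes 1 to 19 in each of the 18 lists, by group; each point is a library and the black lines are group means. KO1 lies above KO2 on every day, and WT D0 B with 270 peaks lies far from WT D0 A with 20 and WT D0 C with 1.

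Most members were broad in a single list yet enriched in nearly all of them. A peak of at least 2000 bp lay in exactly 1 list for 659 members (64.4%), in 2 lists for 195 and in 5 or more for 50. In contrast, the median member held a peak of some width in 13 of the 15 lists. Peaks were found in at least 10 lists at 944 members and in all 15 at 297 (29.0%). KO1 D2 alone supplied 199 members that no other list drew as broad, WT D0 B supplied 169 and KO1 D10 supplied 71. Members chosen without the KO1 lists numbered 651, and 337 without both KO1 and WT B.

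Where a member was not broad in a list, its signal was usually split. Such members held on average 1.42 (WT D0 C) to 2.28 (WT D2 A) separate pieces per pre-iPSC list among those with any peak. The share of them that was split into more than 1 piece was highest in WT D2 A (82.1%) and lowest in WT D0 C (37.2%). The median member was 2305.5 bp long (quartiles 2130.5 and 2653.25 bp). There were 141 members of at least 3000 bp, 33 of at least 4000 bp and 8 of at least 5000 bp, and the longest was 6825 bp.

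The width cut divides a continuous distribution. The 592 peaks of 1900 bp up to the cut had a median fold enrichment of 9.001 and a median −log10 q of 27.8. The 406 peaks in the first 100 bp above it had 9.02 and 28.0. Fold and q are the authors' own values per peak, taken at the summit. Broad peaks were also tall: in WT D2 A their median fold was 10.2 against 5.30 for all narrower peaks, and their median −log10 q was 29.5 against 9.55. Peaks of 1000 bp up to the cut in that list had a median fold of 8.26, nearer to that of the broad peaks. In each of the 17 lists that held any, 72.6% to 100% of the broad peaks were among the tenth of that list with the strongest p. WT D0 C went the other way in fold, as its only broad peak had 2.60 against a median of 4.47 for the rest.

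Summits were described by their distance from the nearer edge of the peak. In the 15 lists the median broad summit lay 27.1% of the peak's width from it. For peaks of 1000 bp up to the cut this distance was 28.7%, and for peaks of 500 bp up to 1000 bp it was 33.7%. The 1751 broad peaks thus had a value close to that of the next shorter class, and the shortest class had summits nearer the centre.

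Coverage, the share of member bp that lay under peaks, was highest at D2 in each WT letter and each KO line. In WT libraries A, B and C, peaks covered 41.5%, 58.2% and 18.4% of member bp at D0. At D2 they covered 70.2%, 68.6% and 61.0%. By D10 coverage was 24.8%, 23.1% and 15.0%. KO1 had 47.1%, 76.8% and 71.7% over the same days, and KO2 had 39.7%, 50.6% and 44.5%. Every WT D10 library lay below every KO D10 library, and all WT D2 libraries lay above all WT libraries of the other days. At D0 the WT range enclosed both KO values.

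**Figure D2:**
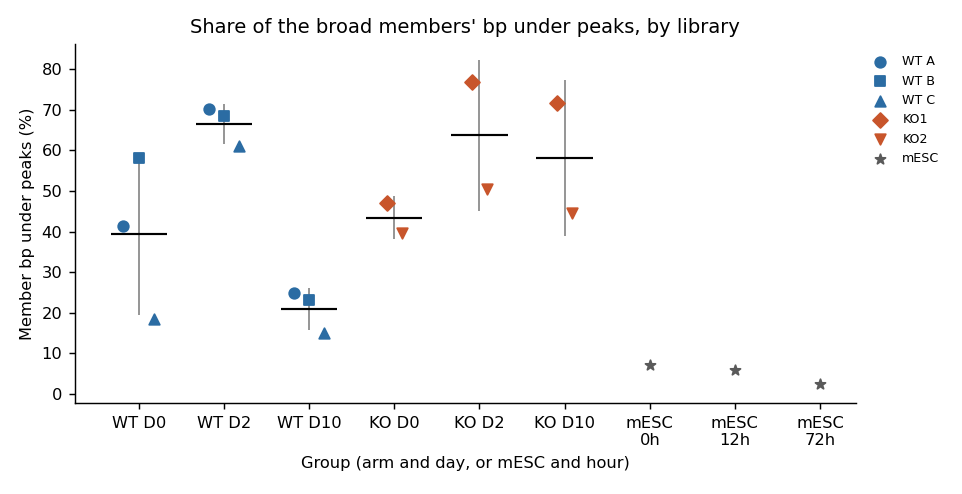
Percentage of the members' 2.57 Mb under peaks in each library; points are libraries, black lines are group means and grey bars are 1 SD. WT coverage is 66.6% on average at D2 and 21.0% at D10, KO coverage is 63.7% and 58.1%, and the 3 mESC libraries lie at 7.19%, 5.88% and 2.47%.

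Group means were 39.4% ± 20.02, 66.6% ± 4.89 and 21.0% ± 5.22 in WT at D0, D2 and D10 (SD, n = 3 each). In KO they were 43.4% ± 5.24, 63.7% ± 18.5 and 58.1% ± 19.2 (SD, n = 2 each). From D2 to D10, coverage changed by a factor of 0.354, 0.337 and 0.247 in WT A, B and C, and of 0.933 and 0.879 in KO1 and KO2. Narrower regions had factors of like size. Among the 15721 merged regions of 1000 bp up to the cut, called the middle class below, they were 0.325, 0.302 and 0.220 in WT and 0.906 and 0.880 in KO. Among the 80931 regions of 500 bp up to 1000 bp, the short class, they were 0.447, 0.439 and 0.334 in WT and 0.837 and 0.959 in KO. All these regions were found in the same lists.

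WT coverage was also highest at D2 in each library for members chosen from fewer lists. For the 651 members chosen without KO1, coverage in WT A, B and C was 72.0%, 70.2% and 63.6% at D2 and 28.1%, 26.3% and 17.7% at D10. In KO1 and KO2 at D10 it was 69.0% and 46.8%. For the 337 members chosen without KO1 and WT B, it was 84.1%, 78.0% and 73.1% in WT at D2, 35.9%, 33.0% and 22.5% in WT at D10, and 72.2% and 59.9% in KO at D10. At D0, WT A, B and C held 36.5%, 47.7% and 18.5% of these members' bp, so that C, unlike in the full set, was lower at D0 than at D10. Over the 3 WT libraries the mean was 34.2% at D0, 78.4% at D2 and 30.5% at D10 for these members.

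Whole lists shrank and grew as well. At D0, D2 and D10 their peaks on chromosomes 1 to 19 held 36.5, 64.5 and 31.6 Mb in WT A. They held 56.8, 57.0 and 28.3 Mb in WT B and 22.5, 43.5 and 17.6 Mb in WT C. KO1 lists held 30.7, 64.2 and 51.8 Mb, and KO2 lists held 35.6, 43.7 and 43.1 Mb. The fall in member coverage from D2 to D10 in WT thus came with a fall of whole lists. The share of all peak bp that lay within members was, in WT, 2.55% ± 0.417 on D0, then 3.16% ± 0.407 on D2 and 2.10% ± 0.0923 on D10 (SD, n = 3 each). In KO it was 3.41% ± 0.763, 3.02% ± 0.0712 and 3.10% ± 0.637 (SD, n = 2 each). By library, this share was not highest at D2 throughout. WT A had 2.92% at D0 and 2.80% at D2, while WT B and C were highest at D2. KO1 had 3.95%, 3.07% and 3.55% over the days, and KO2 had 2.87%, 2.97% and 2.65%.

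Member by member, D2 was the commonest day of highest mean coverage in WT. It was the highest WT day at 745 members, D0 at 227 and D10 at 52. In KO the highest day was D2 at 508 members, D0 at 282 and D10 at 234. Of the 227 members highest at D0, 186 were broad in WT D0 B.

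**Figure D3:**
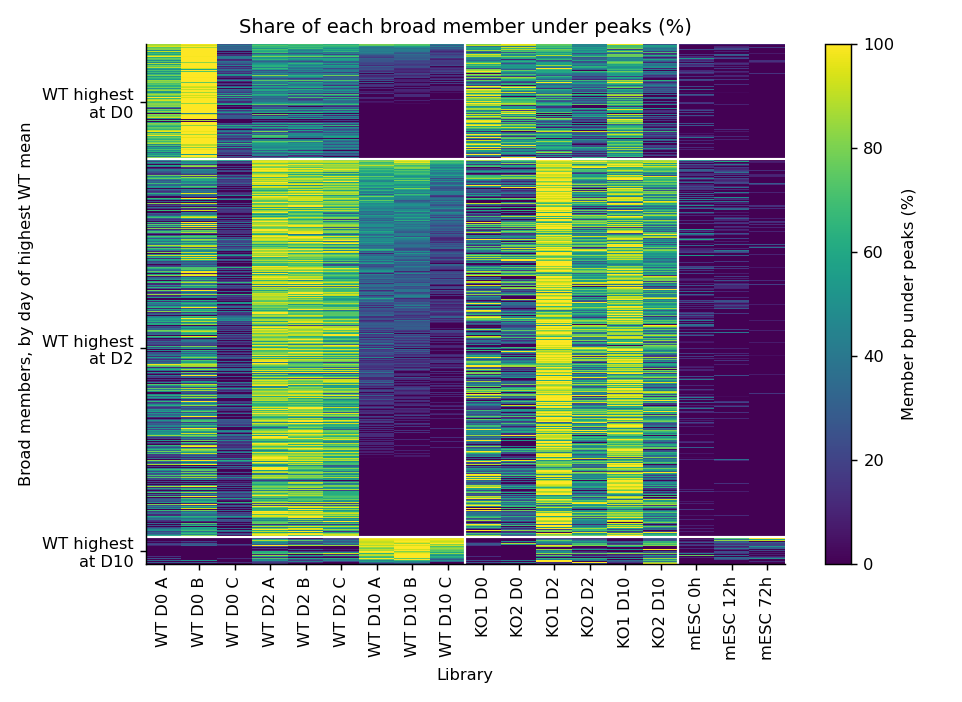
Percentage of each of the 1024 members (rows) under peaks in each of 18 libraries (columns), grouped by the day of the highest WT mean and, within a group, ordered by the WT D10 mean. The 745 members highest at D2 keep coverage in both KO D10 libraries, and the 52 members highest at D10 are the ones with the most bright rows in mESC at 12 and 72 hours.

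Peak presence gave further patterns. All 9 WT libraries had a peak at 330 members. All WT D0 and D2 libraries but no WT D10 library had one at 185 members, and D2 and D10 but not D0 at 24. Only 12 members had a peak in all D2 libraries and in no other WT library, 7 in all D10 libraries alone and 2 in all D0 libraries alone. These patterns were not counted over other regions, so they are not shown to be particular to members. By library, WT D10 A, B and C had a peak at 68.3%, 63.5% and 53.1% of members. In the middle class they had one at 46.4%, 41.9% and 31.4% of regions. The broad form itself also changed by day: 272 members were broad in a WT D0 list, 308 in a WT D2 list and 45 in a WT D10 list. No member was broad in both a WT D0 and a WT D10 list. All 3 libraries agreed on breadth at 0 members for WT D0, 41 for D2 and 7 for D10.

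Most members were broad in a single arm, as the 659 that were broad in exactly 1 list had to be. Members broad in KO lists only numbered 431, in WT lists only 330, and in both 263. Of those broad in KO only, most came from KO1, since 374 members were broad in no list but KO1's. At those 374 members WT D2 A, B and C nevertheless had a peak at 372, 372 and 368, and covered 68.6%, 66.9% and 57.7% of their bp. At the 330 members broad in WT only, KO1 and KO2 had a peak at 311 and 299 at D2.

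The longest members show what these patterns look like at single places. All positions are those of mm9, for which no annotation was used here, and regions therefore carry no gene names. The longest, chr2:168579617-168586441 (6825 bp), held 1828, 2345 and 1205 covered bp in WT A, B and C at D0. It held 6252, 6451 and 5862 bp at D2 and 3221, 3044 and 679 bp at D10. KO1 held 1252, 6051 and 6555 bp at D0, D2 and D10, and KO2 held 1474, 2591 and 1745 bp. The WT D2 libraries were above every other WT library here, and the KO lines parted after D0. In mESC it held 1553, 1376 and 0 bp at 0, 12 and 72 hours.

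A second kind stayed covered at D10. At chr4:141027258-141033939 (6682 bp), WT A, B and C held 407, 1161 and 238 bp at D0, 4994, 4163 and 4923 bp at D2, and 5372, 5977 and 4691 bp at D10. KO1 held 935, 4175 and 3472 bp over the days and KO2 held 358, 3715 and 4209 bp. All D0 libraries of both arms were below all D2 and D10 libraries. At chr8:91551399-91557291 (5893 bp), WT held 236, 272 and 0 bp at D0, 4916, 4751 and 4090 bp at D2, and 4555, 3437 and 2603 bp at D10. KO1 D2 drew this region as 1 peak of 5893 bp, whereas KO2 D2 covered 3620 bp of it in 5 pieces. KO1 held 0 bp at D0 and 2109 bp at D10, and KO2 held 536 and 3393 bp.

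Other long members had less coverage in every WT library at D10 than in any at D2. At chr5:111487084-111492554 (5471 bp), WT held 3630, 3486 and 3387 bp at D2 and 900, 462 and 0 bp at D10. KO1 held 4837 and 4872 bp on these days, and KO2 held 1311 and 939 bp. Only KO1 lists drew it as broad. At chr2:71375516-71380606 (5091 bp), WT held 3539, 4096 and 3578 bp at D2 and 659, 477 and 0 bp at D10, while KO1 held 3410 and 4608 bp and KO2 held 3520 and 2892 bp. Both KO lines were above all WT libraries at D10 in these members. At chr4:148295571-148300754 (5184 bp), WT held 2370, 4224 and 0 bp at D0, 4898, 4787 and 4113 bp at D2, and 1904, 1171 and 574 bp at D10. KO1 held 4930 bp and KO2 1946 bp at D10. None of these 3 members had a peak in the 72-hour mESC list.

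The members that were broad in the most lists also lost coverage in WT by D10. At chr8:87307445-87311160 (3716 bp), which was broad in 10 lists, WT held 2769, 3192 and 413 bp at D0, 2922, 3129 and 2775 bp at D2, and 861, 300 and 0 bp at D10. KO1 held 3183, 3068 and 3149 bp and KO2 held 3230, 2638 and 1527 bp over the days. On the same chromosome, chr8:87227590-87232578 (4989 bp), broad in 8 lists, held 3037, 3612 and 3975 bp in WT at D2 and 236, 0 and 0 bp at D10. It held 4166 bp in KO1 and 1632 bp in KO2 at D10. The other member broad in 8 lists, chr2:73108077-73110846 (2770 bp), held 2351, 2391 and 2148 bp in WT at D2 and 705, 652 and 0 bp at D10, beside 2740 and 2289 bp in KO1 and KO2. At chr2:115683897-115687004 (3108 bp, 7 lists), WT D10 held 594, 373 and 0 bp and KO D10 held 2904 and 2709 bp. At chr11:106909722-106912603 (2882 bp, 7 lists), WT D10 held 1587, 722 and 674 bp and KO D10 held 2274 and 2477 bp. Both KO D10 libraries lay above all WT D10 libraries in each of these 5 members, which were picked for breadth over all 15 lists, those of KO D10 included.

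A small set ran the other way and was broad in WT at D10. At 7 members all 3 WT D10 libraries drew a peak of at least 2000 bp. One of these, chr17:84858427-84863582 (5156 bp), held 0 bp in all WT and KO libraries at D0. In WT A, B and C it held 883, 0 and 854 bp at D2, and single peaks of 5093, 5112 and 4949 bp at D10. KO1 held 763 and 0 bp at D2 and D10, and KO2 held 468 and 1208 bp. Its mESC values were 0, 3807 and 5118 bp at 0, 12 and 72 hours, and the 72-hour list drew it as 1 peak, chr17:84858442-84863559. The WT D10 and 72-hour mESC peaks thus spanned nearly the same interval, and no KO library covered more than 1208 bp of it.

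The other 6 had related profiles. At chr11:5067916-5070606 (2691 bp), WT held 2360, 1997 and 1072 bp at D2 and 2556, 2646 and 2533 bp at D10. KO1 fell from 2046 to 0 bp and KO2 from 1016 to 658 bp between the same days, and mESC held 0, 2235 and 2408 bp. At chr15:75932829-75936548 (3720 bp), WT D10 held 3575, 3618 and 3637 bp, KO D10 held 0 and 877 bp, and 72-hour mESC held 2162 bp. At chr15:76002531-76008766 (6236 bp), WT held 0, 265 and 0 bp at D0, 2719, 2039 and 2061 bp at D2, and 5615, 5962 and 5868 bp at D10. KO D10 held 2220 and 4081 bp there, both below the WT libraries. At chr8:109432328-109434784 (2457 bp), WT D10 held 2174, 2054 and 2200 bp and KO D10 held 0 and 1172 bp. At chr8:46035657-46039317 (3661 bp), WT D10 held 3589, 3637 and 3609 bp and KO D10 held 735 and 3505 bp. At chr5:3435745-3438715 (2971 bp), WT D10 held 2907, 2971 and 2110 bp and KO D10 held 1722 and 0 bp. KO1 had no D10 peak at 4 of these 7 members, and KO2 covered more than KO1 at D10 in 6 of them. Apart from those among the longest members or those with most 72-hour mESC bp, these members were singled out after their values were seen.

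Coverage of single members at D10 was compared between the arms as a description. Both KO D10 libraries covered more bp than all 3 WT D10 libraries at 699 members (68.3%), and fewer at 38 (3.71%). Over all 342202 merged regions these shares were 10.8% and 4.12%. Over the 15721 regions of the middle class they were 51.5% and 3.98%, and over the short class 23.6% and 6.90%. The rule had used KO D10 and WT D10 widths, so nothing is read from the members' share. No WT D10 library had a peak at 266 members. KO1 had a D10 peak at 259 of them (97.4%), KO2 at 208 (78.2%) and both at 205. Over all 1024 members KO1 had a D10 peak at 97.3%, KO2 at 89.9% and both at 904 members. At the 266 members the KO1 share was thus near its share of all members, and the KO2 share was lower.

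mESC lists took no part in the choice of members. A peak in the mESC list lay at 383 members at 0 hours (37.4%, exact 95% interval 34.4% to 40.4%), at 313 at 12 hours (30.6%, 27.8% to 33.5%) and at 113 at 72 hours (11.04%, 9.18% to 13.1%). These intervals are Clopper-Pearson and cover counting error only, with 1 library per time. Of the middle class, 22.5%, 19.4% and 7.65% held one, and of the short class, 11.9%, 12.2% and 6.63%. A longer region offers more room for an overlap, and by bp the classes lay closer: mESC peaks covered 7.19%, 5.88% and 2.47% of member bp, 6.34%, 5.00% and 2.04% of the middle class, and 5.29%, 5.07% and 2.89% of the short class. At 492 members no mESC list had a peak, and at 38 all 3 did. The mESC lists drew 3 broad peaks, chr17:84860905-84863529 and chr17:84858442-84863559 at 12 and 72 hours and chr11:5068151-5070558 at 72 hours, and each overlapped a member.

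Peaks in mESC were then set against peaks in WT at D10. Of the 489 members with a peak in all 3 WT D10 libraries, 226 (46.2%), 258 (52.8%) and 107 (21.9%) had one at 0, 12 and 72 hours. Of the 269 with a peak in 1 or 2 WT D10 libraries, 36.8%, 14.1% and 1.86% had one. Of the 266 with none, 58 (21.8%), 17 (6.39%) and 1 (0.376%) had one. The exact 95% intervals of the first and last of these sets were 18.3% to 25.8% and 0.00952% to 2.08% at 72 hours. They count members as separate draws from 1 library per time and are no test of a difference. The same split was not made for the narrower classes, so nothing here shows that it is particular to broad members.

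**Figure D4:**
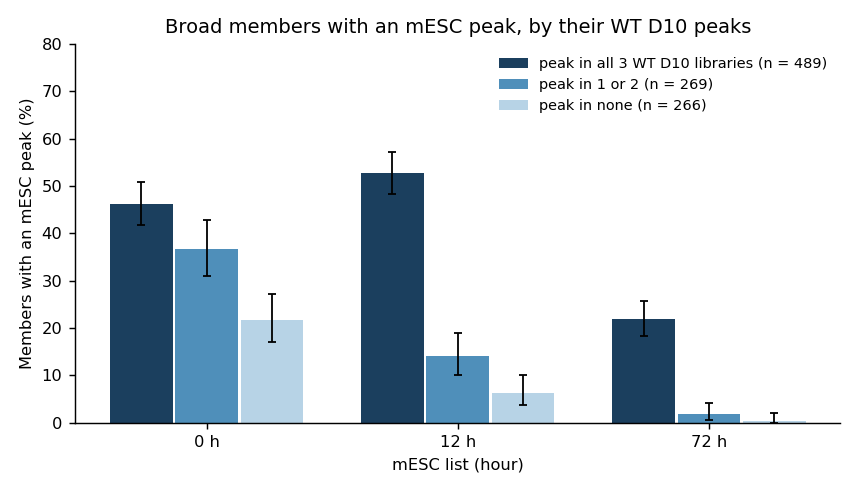
Percentage of members with a peak in the mESC list at 0, 12 and 72 hours, for members with a peak in all 3, in 1 or 2, or in none of the WT D10 libraries; error bars are exact 95% Clopper-Pearson intervals that cover counting error only. At 12 hours the share is 52.8% of 489 members against 6.39% of 266.

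Members covered late in WT were looked at in the same way. Of the 45 members broad in a WT D10 list, 55.6%, 84.4% and 77.8% had a peak in mESC at 0, 12 and 72 hours. Like shares were not taken for narrower regions covered in WT at D10. All 7 that were broad in each WT D10 library had one at both 12 and 72 hours. The 7 members with a peak in all WT D10 libraries and no other WT library all had one at 72 hours, and 5 of them at 12 hours. At one of these, chr12:36831577-36833592 (2016 bp), WT D10 held 1471, 2016 and 1863 bp, no KO library held any, and 72-hour mESC held 1925 bp. At chr1:189176873-189179205 (2333 bp), WT D10 held 2265, 2207 and 2104 bp, KO2 D10 held 1234 bp, KO1 D10 held 0 bp and 72-hour mESC held 1895 bp. Both of these were picked as examples after their values were seen.

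Changes over days were tested in libraries that had not chosen the regions. The genome was divided into 10 kb windows, and each library was cut to its 55130 strongest peaks, the number in the shortest list, to give lists a single length. Covered bp per window were scaled to an equal total and tested as log2(covered bp + 200) with limma. The test took in windows that averaged 500 bp or more, and windows were called at a Benjamini-Hochberg adjusted p under 0.05. Log2 changes on this scale understate changes in thinly covered windows. They can also exceed the change over all deposited peaks, where the cut removed weaker peaks. For named windows, log2 changes are those of the strongest peaks. Covered bp of named windows are those of all deposited peaks unless given as scaled. The windows chosen by KO broad peaks held 1456 scaled bp on average in WT against 876 for all tested windows, so that they differ from the rest in coverage as well as in breadth.

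The first test asked how WT coverage changed from D0 to D2 where KO cells had a broad peak, and most calls were rises. KO lists chose 666 windows, of which 628 passed the filter. This choice leaned to D2: 433 members were broad in a KO D2 list, 288 in a KO D10 list and 154 in a KO D0 list. Such a choice favours windows high at D2, so an excess over the background is not free of the choice of day. In WT, 173 were called higher at D2 than at D0, which is 26.0% of those chosen, against a background of 14.8% of 14776 windows. In contrast 8 were called lower, against 2.98% of all windows. The median log2 change was 0.87 in tested KO-chosen windows and 0.38 in all. Set against the median window of each library, 16.2% of the chosen windows and 8.47% of all were called higher. Without that adjustment, leaving out WT D2 A lowered the shares from 26.0% and 14.8% to 13.4% and 7.66%. Leaving out WT D2 C gave 15.2% and 8.43%, and leaving out WT D2 B gave 15.3% and 8.47%. KO2 lists alone chose 121 windows, of which 38 (31.4%) were called higher.

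Named windows show the size of the rise. In chr10:79430001-79440000, all deposited peaks covered 840, 1179 and 0 bp in WT A, B and C at D0 and 4642, 4917 and 4853 bp at D2. The log2 change was 3.92 ± 0.37 (SE, limma adjusted p = 0.00047). In chr19:43680001-43690000 the values were 801, 1347 and 0 bp at D0 and 3985, 3700 and 2933 bp at D2, and the log2 change was 3.86 ± 0.24 (SE, limma adjusted p = 0.000118). In chr3:121150001-121160000 they were 262, 1006 and 0 bp and then 3830, 3631 and 2675 bp, with a log2 change of 3.68 ± 0.28 (SE, limma adjusted p = 0.000218). In each of these windows every D2 library was above every D0 library. The last 2 held no D0 bp among the strongest peaks, so their log2 changes depend on the 200 bp added. The largest falls were smaller. In chr6:99860001-99870000 WT held 1758, 2590 and 449 bp at D0 and 1038, 742 and 884 bp at D2, overlapping over all deposited peaks. Among the strongest peaks its log2 change was -2.27 ± 0.63 (SE, limma adjusted p = 0.0375). In chr7:142260001-142270000 it was -2.18 ± 0.52 (SE, limma adjusted p = 0.0209), from 1946 ± 559 scaled bp at D0 to 335 ± 290.4 at D2 (SD, n = 3 each). With every deposited peak counted, the window held 2714, 2869 and 1143 bp at D0 and 1160, 1034 and 1018 bp at D2, which overlap.

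From D2 to D10 most calls in the same windows were falls. Of the 666, 337 were called lower (50.6%), against 33.2% of all 14776 windows, and 15 were called higher, against 13.8%. The median log2 change was -1.29 in tested KO-chosen windows and -0.60 in all. Of the 121 windows chosen by KO2 lists alone, 59 (48.8%) were called lower. This comparison shares its WT D2 libraries with the one before, so that the rise and the fall are not independent of each other. The lean of the KO choice to D2 applies to it as well.

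In chr11:79450001-79460000, all deposited peaks covered 3986, 4383 and 4096 bp in WT A, B and C at D2 and 363, 0 and 0 bp at D10. The log2 change was -4.22 ± 0.31 (SE, limma adjusted p = 0.0000104). KO1 and KO2 covered 2447 and 1600 bp of that window at D10. In chr18:56870001-56880000 WT held 5410, 5520 and 4748 bp and then 266, 0 and 0 bp, with a log2 change of -4.24 ± 0.77 (SE, limma adjusted p = 0.00185). KO1 and KO2 kept 5647 and 3118 bp at D10. In chr4:132590001-132600000 WT held 5849, 5922 and 5288 bp and then 236, 265 and 0 bp, with a log2 change of -4.19 ± 0.42 (SE, limma adjusted p = 0.0000733). In these 3 windows no D10 library reached any D2 library.

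The few rises from D2 to D10 included windows on chromosome 5, where KO1 had extra peaks. In chr5:3430001-3440000, which holds the member chr5:3435745-3438715, WT held 1759, 699 and 0 bp at D2 and 3473, 2971 and 2724 bp at D10. Among the strongest peaks this window held 0 scaled bp on average at D2 and 3600 ± 285 at D10 (SD, n = 3). Its log2 change was 4.25 ± 0.27 (SE, limma adjusted p = 0.000008). In chr5:115180001-115190000 WT held 2376, 899 and 1020 bp and then 4823, 5411 and 3812 bp, with a log2 change of 4.64 ± 0.40 (SE, limma adjusted p = 0.0000342). KO1 held 5550 and 3423 bp of it on those days and KO2 held 0 and 611 bp. Among the strongest peaks WT was also lower at D2 than at D0 in this window (log2 change -2.07 ± 0.40, SE, limma adjusted p = 0.0086), while over all deposited peaks its D0 and D2 libraries overlapped. In chr9:96640001-96650000 the log2 change was 3.20 ± 0.40 (SE, limma adjusted p = 0.00023), and over all deposited peaks its D2 and D10 libraries overlapped.

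The reverse test used WT lists to choose and KO libraries to measure. WT lists chose 584 windows, of which 543 were tested among 18013. From D2 to D10, limma called 0 of them lower and 0 higher in KO, and the background was 0% in either direction. At an unadjusted p under 0.05 there were 2 of the chosen windows and 125 of all. The median log2 change was -0.07 in tested WT-chosen windows and -0.06 in all, and the median SE of a chosen window was 0.56. With 2 libraries per day, a count of 0 does not show that KO coverage stayed the same. Without KO1 D10 the median was -0.20 in chosen windows and -0.02 in all, and without KO2 D10 it was 0.14 and 0.12. Whether the fall from D2 to D10 differs between the arms was not tested here.

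**Figure D5:**
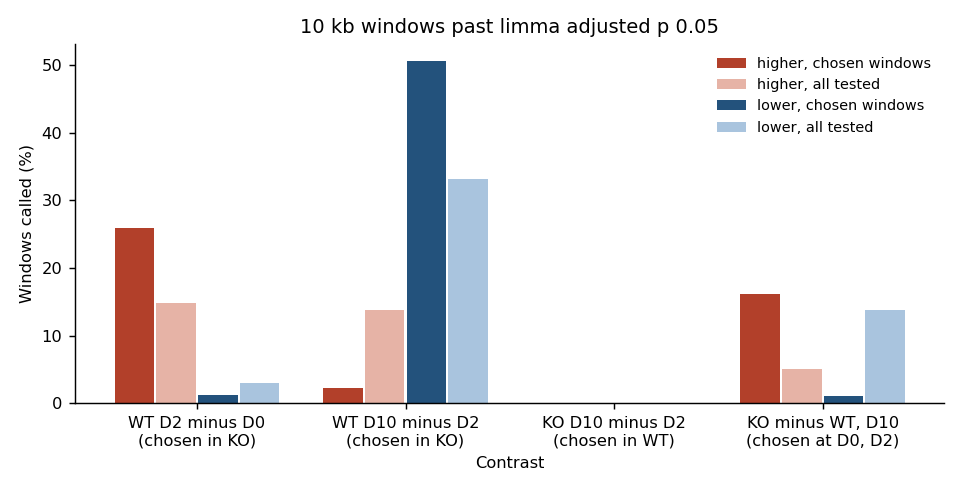
Percentage of windows past a limma adjusted p of 0.05 in 4 contrasts, for windows chosen by broad peaks in libraries outside the contrast (dark bars, out of all chosen windows) and for all windows tested (light bars). From D2 to D10 in WT, 50.6% of the KO-chosen windows are lower against 33.2% of all; no window is called in the KO contrast.

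KO and WT were compared at D10 in windows chosen by broad peaks of D0 and D2. There were 883 of these, of which 733 were tested. KO was called higher than WT in 143 (16.2%), against 5.02% of 13606 windows, and lower in 9, against 13.8%. The median log2 difference was 0.90 in tested chosen windows and -0.23 in all. Both arms' D0 and D2 lists took part in the choice, and with windows chosen without KO1 lists the share was 15.7% of 586. Windows covered only late could hardly enter a set chosen at D0 and D2, but they count among all windows. The smaller share called lower and the higher median in chosen windows can therefore follow from the choice. The choosing lists also held earlier days of the KO lines, whose deviations from group means correlated between days by 0.229 to 0.337. The call depended on the filter and on the libraries. With every covered window tested, limma called 0 windows in either direction, and 374 of the 883 chosen and 16151 of all 78820 windows had an unadjusted p under 0.05. Without KO1 D10, 20 chosen windows (2.27%) were called higher and 24 lower, against 1.16% and 15.9% of all windows. That fit has a single KO library, which is assumed to vary like the WT libraries. Without WT D10 A, B or C the share of chosen windows called higher was 10.8%, 7.70% and 8.95%, against 5.49%, 4.41% and 4.68% of all. With all deposited peaks and no scaling, 364 (41.2%) were called higher, against 17.5% of all. The split of all calls also moved with the setting. Calls were higher in KO for 26.6% as tested, 36.4% relative to the median window, 78.5% with all deposited peaks and no scaling, and 80.4% in a fit of all 15 pre-iPSC libraries.

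In chr11:18770001-18780000 all deposited peaks covered 0, 0 and 0 bp in WT A, B and C at D10 and 5359 and 3635 bp in KO1 and KO2. The log2 difference was 4.24 ± 0.45 (SE, limma adjusted p = 0.0117). At D2 the WT libraries had covered 4397, 4031 and 3550 bp of it. In chr18:56870001-56880000 the difference was 4.13 ± 0.47 and in chr5:102090001-102100000 it was 3.81 ± 0.45 (SE, limma adjusted p = 0.0117 for each). WT D10 held 0 bp of the chromosome 5 window in all 3 libraries, beside 4580 and 2984 bp in KO1 and KO2. No WT library reached a KO library in any of them.

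The largest differences toward WT were smaller. In chr12:112560001-112570000 WT held 5418, 5310 and 3699 bp at D10 and KO1 and KO2 held 1295 and 2151 bp. The log2 difference was -2.47 ± 0.49 (SE, limma adjusted p = 0.0217). In chr17:35660001-35670000 it was -2.87 ± 0.65 (SE, limma adjusted p = 0.032), although over all deposited peaks WT held 2377, 3366 and 2060 bp and KO 2111 and 2252 bp, which overlap. In chr15:88990001-89000000 it was -2.15 ± 0.33 (SE, limma adjusted p = 0.0165), with 4711, 5087 and 5035 bp in WT and 3802 and 2752 bp in KO.

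Members were spaced unevenly along chromosomes. The median distance to the next member was 115 kb, yet 192 members (18.8%) lay within 10 kb of another. They formed 80 groups of at least 2 members with gaps up to 10 kb, and 17 groups of at least 3. The largest had 7 members between positions 47601442 and 47635554 of chromosome 6, a span of 34113 bp. A group of 6 lay on chromosome 5 between 111583194 and 111612541, and another of 6 on chromosome 6 between 47689085 and 47716254. Spacing was not measured for narrower regions or for members chosen without KO1 lists. Close spacing is therefore not shown to be particular to members.

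Chromosome 5 held more members than its share of peaks, and this came from KO1. It held 149 members (14.6%) and 6.65% of all peaks. Of the 651 members chosen without KO1 lists, 43 (6.61%) were on it, and of the 374 members broad only in KO1, 28.3% were. KO1 lists had 10.3% to 10.5% of all their peaks on chromosome 5, against 4.29% to 6.81% in the other 12 pre-iPSC lists. Chromosome 16 held 1.66% of members and 3.35% of all peaks, and 1.54% of members without KO1. The window results were of like size without chromosome 5. In its absence, 25.05% of KO-chosen windows were called higher at WT D2 than at D0, against 14.8% of all windows. At WT D10, 52.4% of them were called lower than at D2, against 33.0% of all. Of the windows chosen at D0 and D2, 16.8% were called higher in KO than in WT at D10, against 5.06% of all.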

How the data were processed

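The authors' peak lists were made with Bowtie, SAMtools and MACS2 on mm9, per the submitters' processing notes, without versions. Every sample but the input has a list of its own, so calling was per library. Each deposited list has 10 columns in the MACS2 layout, with the authors' score, a fold over background (a linear ratio), and columns of −log10 p and −log10 q. These values were used only to rank, filter or describe peaks within a list. The mESC samples are labelled as having had no peaks called, yet they have lists, which were used as deposited. The input library has no list and was not analysed here.

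Samples were grouped by title. Members and lists were chosen with earlier results of these data known. Width is the end minus the start of a deposited peak, and a member's covered bp are those under any deposited peak of a library. Named regions are the 8 longest members, those broad in the most lists, the 3 with most 72-hour mESC bp, and the 3 largest rises and falls per contrast among called windows whose groups did not overlap. Contrasts were fitted with limma 3.58.1 (lmFit, eBayes with trend and robust, R 4.3.3) on log2(covered bp + 200) over 10 kb windows of chromosomes 1 to 19 and X, with the 55130 strongest peaks per list, each library scaled to the mean total, and a mean of at least 500 bp. WT contrasts used 9 WT libraries, the KO contrast 6 KO libraries and the comparison at D10 its 5 libraries. The scripts were tested on simulated data. Deviations from group means correlated between days by 0.229 to 0.337 for a KO line, taken from its title as the same line on each day, which pairs the KO libraries, and by -0.0301 to 0.0457 for a WT letter, which does not. Alternatives covered window size, added bp, filter, scaling, width threshold, merging gap, overlap, replicates left out, the block and the libraries that choose. Those without KO1, WT B or chromosome 5, or with KO2 alone choosing, were chosen after seeing the data. Gene annotation of mm9 and DNA sequence were not used here.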

Additional observations from a re-analysis of the deposited data

Results flagged for a closer look

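Between D2 and D10 the arms moved in opposite directions at chr11:5067916-5070606. Covered bp rose in all 3 WT letters, by 769 bp on average, and fell by 1202 bp on average over both KO lines. WT minus KO, the change differed by 1971 bp. The difference between the arms was not tested, and the letters and lines pair libraries only by their titles.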

How the results depend on the processing

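Among alternatives for the main results, 205 values were labelled as the same and 26 as moved. The label is a loose one, and a value called the same can differ clearly from the main result. Coverage within 1 SD of its group was called the same, and that SD was wide at WT D0, KO D2 and KO D10. The ranges below for these groups with 1 library left out are thus all among the 205. So is the range of 40.4% to 58.3% for the share called lower at WT D10. Without KO1 D10, the median log2 difference of KO minus WT at D10 was 0.61 in chosen windows and -0.25 in all windows. Without KO2 D10, the median change of WT-chosen windows in KO from D2 to D10 turned from -0.07 to 0.14. That of all windows turned with it, from -0.06 to 0.12. The share of KO-chosen windows called higher at WT D2 than at D0 was 26.0%. It was 16.2% relative to the median window (8.47% of all windows) and 42.9% for broad peaks from 3000 bp (14.8%). With 1 library left out it was 13.4% to 25.7% (7.66% and 13.5% of all windows at these ends). The share called lower at WT D10 than at D2 (50.6%) was 40.4% to 58.3% with 1 library left out. The share higher in KO than WT at D10 (16.2%) was 41.2% with all deposited peaks (17.5% of all windows), 10.3% with 50 bp added (3.08%), 0% with every window tested (0%), 30.6% in a fit of all 15 libraries (20.8%), 10.5% for peaks from 1500 bp and 26.1% from 3000 bp (5.02% for both), and 2.27% to 13.0% with 1 library left out (1.16% and 2.96% at these ends). The KO count from D2 to D10 was 0 throughout. Members numbered 3784 from 1500 bp, 114 from 3000 bp, 651 without KO1 and 337 without KO1 and WT B, and 829 to 1024 with 1 list left out. Mean coverage at WT D2 (66.6%) was 57.6% with the strongest peaks alone and 78.4% for members chosen without KO1 and WT B. At WT D10 (21.0%) it was 27.0% from 3000 bp and 30.5% without KO1 and WT B. With 1 library left out, coverage ranged from 26.8% to 49.9%, 64.4% to 70.5% and 18.6% to 23.9% in WT and from 38.7% to 48.3%, 52.5% to 77.0% and 45.1% to 71.9% in KO at D0, D2 and D10. Members with an mESC peak of −log10 q at least 5 were 29.1%, 17.7% and 7.32% at 0, 12 and 72 hours. Apart from the settings that change the number of windows, libraries or peaks, the cause was not tested.

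With the replicate block, 24.2% of KO-chosen windows were called higher at WT D2 than at D0 and 52.0% lower at D10 than at D2. Over all windows these shares were 13.1% and 32.7%. In the opposite directions the counts of KO-chosen windows went from 8 to 6 and from 15 to 12. In KO, 0% of WT-chosen windows were called lower. WT letters did not correlate best with their own letter. At D10 the groups share no replicate labels, and no block could be fitted.

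Absolute depth is unknown, so an absent peak is a failure to pass the caller's threshold and not a measured absence of 5hmC. Peak width, coverage and list length depend on that threshold together, and cannot be told apart in these files. The 2 KO lines differed in width and on chromosome 5, and mESC times had 1 library each.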
